A study of Bos taurus with 2 samples.

Results

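Unmethylated CpG islands of bovine sperm were selected on measured values. An island was a maximal run of 20 to 99 listed CpG sites with at most 50 bp between neighbours on the 29 autosomes. It counted as unmethylated when its methylation level, the methylated reads over all reads summed over its CpGs, was under 10% in both libraries, with at least 50 summed reads and a mean under 100 reads per CpG in each. Of 65589 islands that met the limits on length, reads and coverage in both libraries, 22853 (34.8%) were unmethylated, and they held 1086384 CpGs, or 4.17% of the listed autosomal CpGs. Since the level chose them, the levels and the library differences inside these islands are a description with no test.

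In mammals most CpGs are methylated, and methylated cytosines are lost over evolutionary time because they deaminate to thymine. CpG islands are short stretches that kept their CpGs, many of them lie at gene promoters, and unmethylated islands carry the histone mark H3K4me3 at active genes and often the Polycomb mark H3K27me3 at silent ones. Male germ cells lose nearly all methylation as primordial germ cells and regain it afterwards, while most promoter islands stay free of it. The unmethylated islands of sperm are thus gaps in an otherwise methylated genome.

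The sperm came from frozen semen of Bull1 and Bull2, monozygotic twin Holstein bulls used for artificial insemination, collected at the same adult age. The study reports higher average motility of fresh and thawed sperm in Bull1, by age with significance only in the early months of collection. Its other semen traits did not differ significantly. The sequenced semen was collected after those early months. Each bull gave 1 library of whole-genome bisulfite sequencing, in which unmethylated cytosines are converted and read as thymine, so the differences below compare the libraries and cannot be told apart from differences between the bulls' samples or preparations. The mean depth was 20.01 reads per listed CpG in Bull1 and 18.4 in Bull2. The study reports its average read depth in the opposite order, with Bull2 deeper, and the reason was not determined. Positions are on genome build UMD3.1 as the files list them, and most islands are named by position. The only gene annotation of that build used here was the study's assignment to genes of its differentially methylated regions between the bulls.

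A pair of targeted assays of the study overlapped unmethylated islands. Their primers are shown because they fix the assays by sequence as well as by position. Each assay began inside an island and ended past it, so the primers do not mark the island ends. Both pairs amplified bisulfite-converted DNA of chromosome 4, at chr4:69311385-69311729 (assay A) and chr4:69398315-69398594 (assay B), and are written 5′ to 3′ with no part marked by capitals.
assay A forward: taagtttgtgggagggggatag
assay A reverse: accacctcaaaaaaaacaacaaatc
assay B forward: ggttagaggaggttgtttttgtgag
assay B reverse: aacctctaaactcctctctctccac
The forward primers hold 0 c and the reverse primers 0 g, the base composition of primers for converted DNA that cover no CpG. All 24 listed CpGs of assay B lay in the island chr4:69398030-69398552 of 46 CpGs. There 0 of 455 reads were methylated in Bull1 and 3 of 391 (0.767%) in Bull2. A count of 0 of 455 would allow a level of up to 0.659% if the counts at neighbouring CpGs were independent, and more since they are not. Assay A began in the island chr4:69310874-69311488 of 52 CpGs, with 1 methylated read of 309 in Bull1 and 1 of 363 in Bull2. Of its 27 listed CpGs, 11 lay in that island and 16 in the next run, chr4:69311553-69312765, whose 113 CpGs are too many for the selection used here. That run had 116 methylated reads of 818 (14.2%) in Bull1 and 1 of 639 (0.156%) in Bull2. These counts take a read again at each CpG it spans. In Bull1 many neighbouring CpGs of the run held 1 to 3 methylated reads each, so the methylated molecules were fewer than 116. Their number was not determined.

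**Figure D1:**
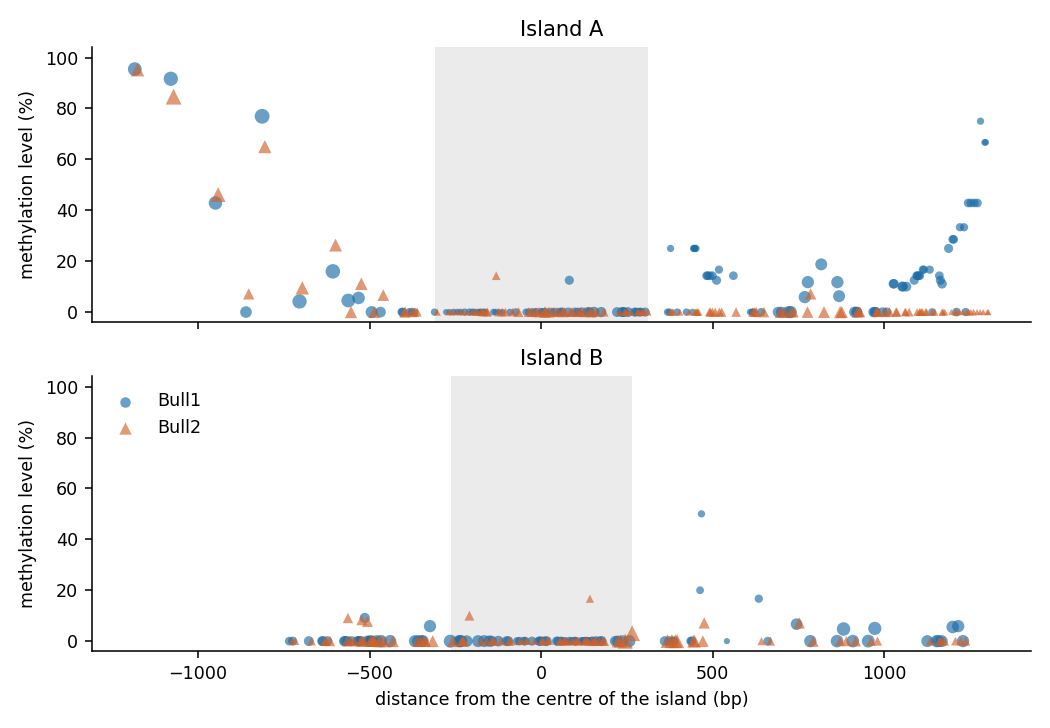
Methylation level of each listed CpG (y axis, %) by distance from the centre of the island (x axis, bp) for the islands of assay A and assay B, with Bull1 as circles, Bull2 as triangles, symbol area growing with the reads and the island shaded. Inside both islands nearly all CpGs sit at 0%, and to the right of island A the CpGs of the next run rise in Bull1 and stay near 0% in Bull2.

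Most of the selected islands were nearly free of methylation. The pooled level was 1.62% in Bull1 (exact 95% interval 1.61 to 1.63) and 1.41% in Bull2 (1.40 to 1.41), against 75% and 70.8% over all autosomal CpGs. The median island had 0.875% in Bull1 and 0.820% in Bull2. Of the islands, 20377 (89.2%) were under 5% in both libraries, 9402 (41.1%) were under 1% in both, and 1041 (4.56%) had no methylated read in either. With a median of 266 summed reads in Bull1 and 272 in Bull2, 0 methylated reads allow a level of up to 1.13% and 1.10%. Intervals and limits treat these counts as independent. A read that spans several CpGs was counted at each of them, so they are too narrow even for counting error, and they cover nothing else. Conversion rates were not used here. The part of unconverted cytosines in these low levels, and in the library differences inside the islands, was not tested. The islands just inside the 10% limit had 9.98%, 9.98% and 9.97% in their higher library, and those just outside had 10%.

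**Figure D2:**
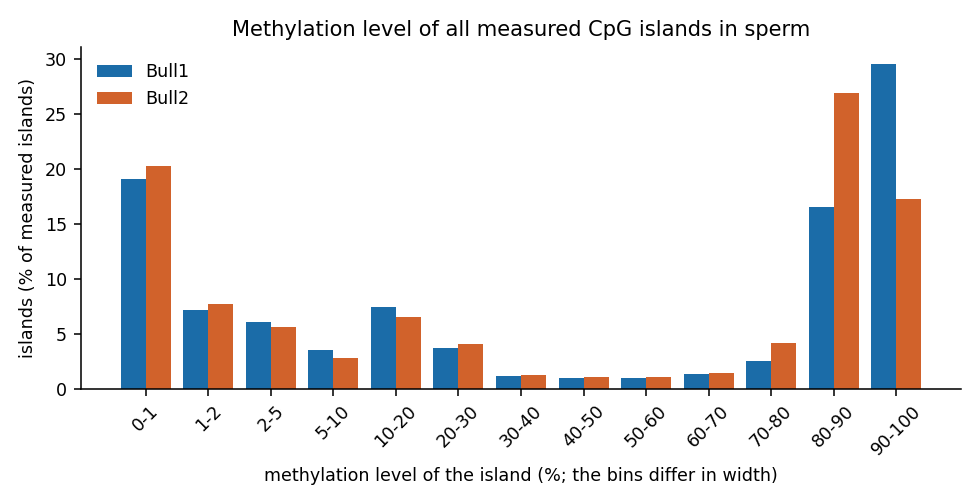
Share of the 65589 measured islands (y axis, %) in each range of methylation level (x axis, %, bins of unequal width), with 1 bar for each library. In both libraries most islands were near 0% or over 80%, with few between 30% and 70%. A smaller group lay just above the 10% limit, with 7.47% of islands in Bull1 and 6.51% in Bull2 at 10% to 20%. A further 3.71% and 4.07% lay at 20% to 30%.

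The 5 islands with 99 CpGs and the most reads had the following counts. On chr19:43883686-43884617, 3 of 1206 reads were methylated in Bull1 and 11 of 1639 in Bull2. On chr5:67939694-67941016 the counts were 3 of 988 and 1 of 862. On chr17:73286553-73287706 they were 9 of 1006 and 4 of 838. These 3 islands were under 1% in both libraries. On chr14:16969950-16970829 the counts were 19 of 812 (2.34%) and 5 of 755 (0.662%), and on chr18:35541258-35542400 they were 8 of 676 (1.18%) and 3 of 885 (0.339%).

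Inside the islands, which the selection kept under 10% in both libraries, the pooled levels differed by a fraction of a percentage point. The pooled level was 0.211 points higher in Bull1, and 0.173 points higher when the libraries were compared within each CpG. The median island differed by 0.0018 points, with 11435 islands (50%) higher in Bull1, 10349 (45.3%) lower and 1069 (4.68%) equal. The pooled difference was above 0 on all 29 autosomes, from 0.0448 points on chromosome 21 to 0.337 on chromosome 20. It came to 0.0524 points in the 2023 islands where both libraries reached 10 reads per CpG, and it turned to -0.172 points when the level limit was raised to 20%. Differences above 5 points were found in 491 islands higher in Bull1 and 157 lower. At the extremes stood chr4:11623603-11624545, with 40 of 403 methylated reads in Bull1 and 0 of 332 in Bull2, and chr19:13201357-13202212, with 0 of 274 and 24 of 242.

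Islands with more CpGs were more often unmethylated. The share of unmethylated islands rose from 19.4% of islands with 20 to 29 CpGs to 83.3% of those with 90 to 99, while the share methylated at 80% or more in both libraries fell from 53.8% to 7.60%. Beyond the upper limit, 4548 of 5283 runs with 100 or more CpGs (86.1%) were also under 10% in both libraries. The members had a median of 42 CpGs (quartiles 28 and 64) over a median length of 495 bp (360 and 686).

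CpG spacing, which the selection did not use beyond the 50 bp limit, also differed between the classes. The median of the mean spacing was 11.7 bp in unmethylated islands, 14.4 bp in intermediate ones (10% to 80% in both) and 15.8 bp in the 28214 methylated ones. Spacing also fell with the number of CpGs, so these medians mix both traits. At 20 to 29 CpGs it was 13.7 bp in unmethylated and 16.3 bp in methylated islands. At 90 to 99 CpGs it was 9.78 and 13.1 bp. Of islands with a mean spacing under 8 bp, 87.4% were unmethylated, against 6.49% of those with a spacing of 20 to 50 bp. The commonest distance between neighbouring CpGs in the members was 2 bp, the shortest possible, which adjacent CpGs (CGCG) give. It made up 10.6% of neighbour pairs there, 5.06% in methylated islands and 5.70% in intermediate ones. The median distance was 8 bp in unmethylated and 12 bp in methylated islands.

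**Figure D3:**
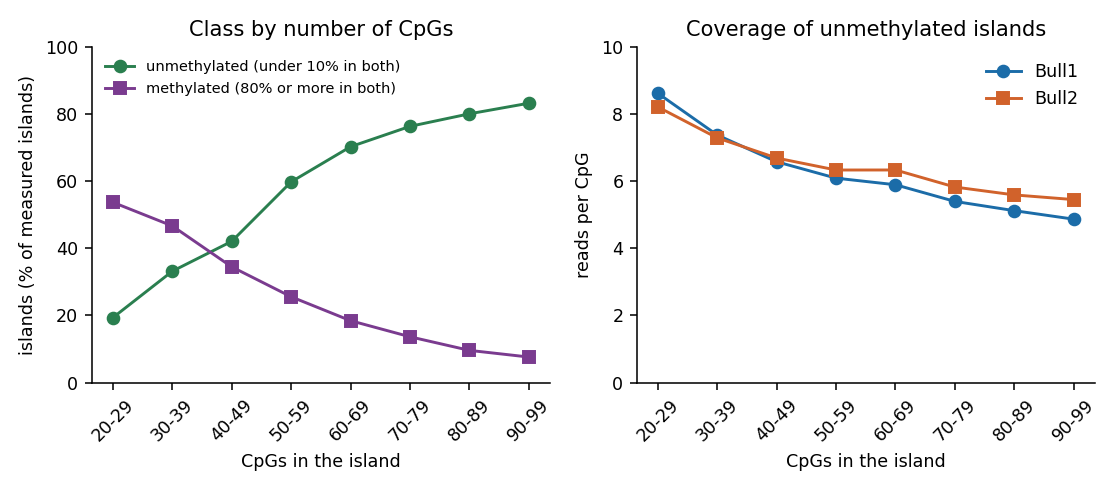
Left, the share of measured islands (y axis, %) that were unmethylated or methylated in both libraries by number of CpGs (x axis). Right, the reads per CpG (y axis) in the unmethylated islands of each library. From 20 to 29 CpGs to 90 to 99 CpGs the unmethylated share rose from 19.4% to 83.3%, and coverage fell from 8.63 to 4.87 reads per CpG in Bull1 and from 8.22 to 5.46 in Bull2.

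The unmethylated islands were thinly covered, which limits the levels given above. They had 6.33 reads per CpG in Bull1 and 6.53 in Bull2, or 31.1% and 35.0% of the mean over all autosomal CpGs. Methylated islands had 8.89 and 9.43. The gap widened with CpG density. At a spacing under 8 bp, unmethylated islands had 3.92 reads per CpG in Bull1 and 4.54 in Bull2, against 8.91 and 10.4 in the 51 methylated islands of that spacing. At 16 to 20 bp the values were 9.46 and 8.80 against 9.18 and 9.57, so the classes lay close together there. The ratio of reads in Bull2 to reads in Bull1 was 1.03 in unmethylated and 1.06 in methylated islands but 0.918 over all autosomal CpGs. The part of coverage in the levels was not tested. Among member CpGs with 1 or 2 reads the pooled level was 1.34% in Bull1 and 1.09% in Bull2, and among those with 11 to 20 reads it was 1.68% and 1.45%. Among the CpGs with 21 or more reads, 1.53% and 1.15% of the member CpGs, the order turned, with 2.63% in Bull1 and 3.07% in Bull2. It turned likewise in the 137 islands with a mean of 20 or more reads per CpG, at 3.91% and 4.20%.

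Methylation was lower inside the islands than at their edges. In the 12025 members with at least 41 CpGs, which alone reach 21 positions in and were set apart after the values were seen, the outermost CpG on each side was at 2.46% in Bull1 and 2.27% in Bull2. CpGs 21 to 50 positions in from the nearer edge were at 1.31% and 0.998%, and larger islands hold more of these. Coverage fell in the same direction, from 9.30 and 8.45 reads at the outermost CpG to 4.38 and 5.17 at those inner positions, and its part in the levels was not tested. The difference between the libraries was 0.192 points at the outermost CpG, 0.124 points at positions 6 to 10 and 0.316 points at positions 21 to 50, where Bull1 had fewer reads than Bull2. Over all members the outermost CpG was at 2.52% and 2.35%.

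Methylated CpGs within unmethylated islands were rare. Of 506875 member CpGs with at least 5 reads in both libraries, 112 (0.0221%) were methylated at 50% or more in both, and they lay in 88 islands. Of these CpGs, 83 (74.1%) were among the 3 outermost of their side, where 17.7% of the CpGs looked at lay, and 4 (3.57%) were more than 10 positions in, where 45.5% lay. CpGs at 50% or more in Bull1 only numbered 269, and in Bull2 only 232. Of the 112 CpGs, 18 had at least 10 reads in both libraries, and 5, counted again among all 112, reached 80% in both.

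Outside the islands methylation rose over about 1 kb. It was 3.88% in Bull1 and 3.69% in Bull2 at 51 to 100 bp from the nearest edge, 13.6% and 13.2% at 201 to 300 bp, 53.2% and 51.3% at 501 to 1000 bp, and 78.2% and 75.03% at 1501 to 2000 bp. The level passed 50% in the same 25 bp bin in both libraries, 701 to 725 bp from the edge. The low state therefore reached past the dense CpGs on both sides. Measured from the first 3 consecutive CpGs at 50% or more on each side, the low stretch around an island had a median width of 2102 bp in Bull1 and 2150 bp in Bull2. That width changed little with the size of the island: from islands of 20 to 39 CpGs to those of 80 to 99 CpGs it went from 2030 to 2269 bp in Bull1, while the median island length went from 354 to 871 bp. Islands in the same low stretch each count its full width, and 46.0% of members had another member within 2000 bp. The widths were not compared for islands without such a neighbour. Stretches of more than 10 kb held 218 islands in Bull1 and 238 in Bull2.

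The difference between the libraries grew over the same distance as the level. Pooled over sites, Bull1 was higher by 0.186 points at 51 to 100 bp, by 0.552 points at 301 to 500 bp, by 1.91 points at 501 to 1000 bp and by 3.16 points at 1501 to 2000 bp. It reached 3.78 points at 5001 to 10000 bp. Compared within each site the last value was 3.69 points. Of the island sides, 26.4% had their first 3 CpGs at 50% farther out in Bull2, 19.6% farther out in Bull1, and 53.9% at the same place.

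**Figure D4:**
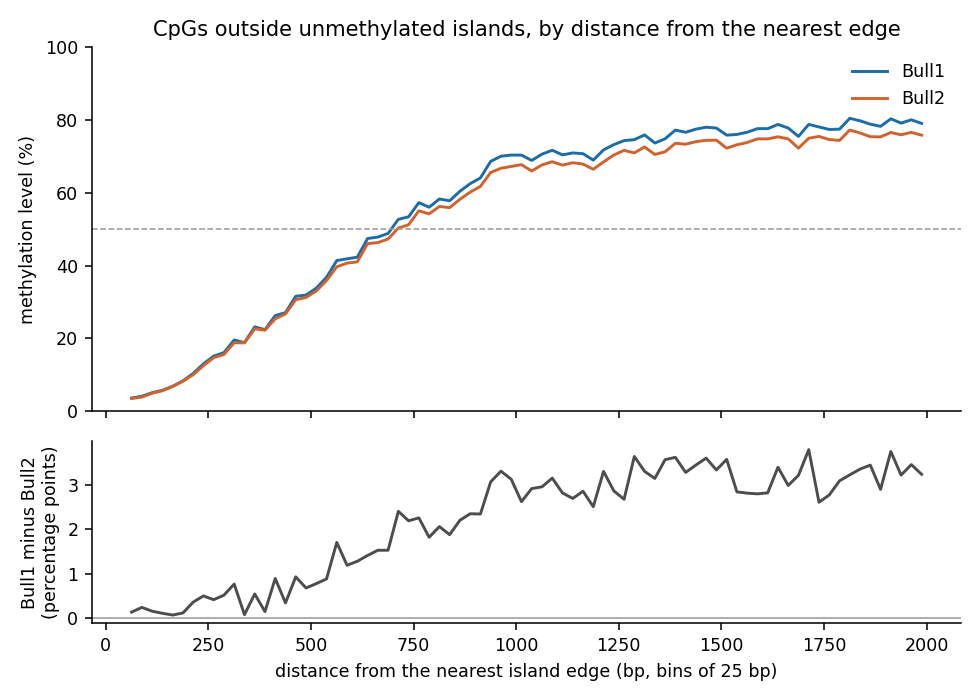
Methylation level (upper panel, y axis, %) and its difference Bull1 minus Bull2 (lower panel, y axis, percentage points) of CpGs outside islands, by distance from the nearest edge of an unmethylated island (x axis, bp, bins of 25 bp). Both libraries passed 50% at 701 to 725 bp, and the difference grew from 0.186 points at 51 to 100 bp to 3.16 points at 1501 to 2000 bp.

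The outer shores, the CpGs 500 to 2000 bp from an edge and outside any run of 20 or more CpGs, were not used in the selection and could be tested. Reads summed over each shore were compared between the libraries by a two-sided Fisher exact test, adjusted by Benjamini-Hochberg over the shores of all 65436 islands with at least 20 reads in each library. Of the 22814 unmethylated islands tested, 4557 (19.97%) had a shore called higher in Bull1 at a false discovery rate of 0.05, where 27.1% of all measured islands did. A shore called lower in Bull1 was found for 798 (3.498%), where 2.92% of all did. The median shore was 2.46 points higher in Bull1, with quartiles of -0.452 and 5.45, beside 2.85 points over all islands. The calls compare 2 libraries and treat reads as independent, and 48.3% of the tested members shared shore sites with another member. With sites at least 300 bp apart, where the median shore was left with 130 and 112 reads, 10 members (0.0443%) were called higher and 6 (0.0266%) lower, where 0.0483% and 0.0125% of all measured islands were. At a false discovery rate of 0.01 the calls were 2478 higher (10.9%, beside 15.8% of all) and 390 lower (1.71%, beside 1.44%). Against the pooled odds ratio of the member shores in place of equal levels, 2363 lay above (10.4%, beside 15.8%) and 1403 below (6.15%, beside 5.87%). At sites of like coverage in both libraries, within 1.5 times after scaling to the library totals, 1798 were higher (7.90%, beside 14.4%) and 45 lower (0.198%, beside 1.04%).

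Most calls of a lower member shore in Bull1 did not hold when the libraries were compared within each CpG. This comparison, a two-sided exact conditional test with the CpG as stratum, was chosen after the values were seen and was adjusted over the same islands. Like the pooled test it treats counts at neighbouring CpGs as independent, though a read can span several, and it was not run on sites 300 bp apart. It called 4306 members (18.9%) higher in Bull1, where 26.5% of all measured islands were called, and 108 (0.473%) lower, where 1.53% of all were called. Of the 4557 shores called higher on pooled reads, 2698 (59.2%) were called higher by site. Of the 798 called lower, 52 (6.52%) were called lower by site, and 375 had a difference above 0 by site. The median difference by site was 2.45 points, and 82.0% of member shores were higher in Bull1 by site against 71.3% on pooled reads. Over all measured islands these shares were 80.9% and 76.7%. Member shores that differed by more than 20 points numbered 48 on pooled reads and 2 by site, beside 99 and 18 among all measured islands.

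The highest pooled difference among called shores was around chr7:48069747-48070161. Its shore of 20 CpGs had 141 methylated reads of 194 (72.7%) in Bull1 and 100 of 254 (39.4%) in Bull2, a difference of 33.3 points (Fisher exact test, adjusted p = 1.7e-09). At its 12 CpGs of like coverage the levels were 92.1% and 87.8%. At 4 CpGs covered more deeply in Bull2 they were 0 of 43 and 1 of 143 reads, and at 4 covered more deeply in Bull1 they were 36 of 37 and 13 of 13. By site the difference was 1.32 points (exact stratified test, adjusted p = 0.771). The part of coverage in the pooled difference was not tested.

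The other shores among the 5 highest also shrank by site. The shore of chr5:30650230-30650653 went from 32.6 points on pooled reads to 4.12 points by site, and that of chr7:22348387-22348694 from 30.9 to 7.84 points, with adjusted p = 0.246 and 0.161 by the exact stratified test. The shore of chr10:57696245-57696819 went from 27.3 to 13.9 points (exact stratified test, adjusted p = 0.000996). The shore of chr5:26241361-26241793 went from 26.7 to 7.56 points (exact stratified test, adjusted p = 0.000797).

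Of the 5 lowest shores, 3 lost the call. The shore of chr19:62579482-62579805 went from -29.2 to -3.35 points, that of chr22:24379913-24380498 from -27.4 to 0.476 points, and that of chr14:33146729-33147615 from -25.8 to -1.40 points, with adjusted p = 0.619, 0.930 and 0.910 by the exact stratified test. The remaining pair are neighbours that share shore sites, chr19:33855251-33855855 and chr19:33855937-33856819. The interval chr19:33853666-33854314 beside them is on the study's list of differentially methylated regions that overlap genes. That list was drawn from these same libraries, and it assigns the interval to an exon and the 3′ UTR of UBB, which encodes polyubiquitin. The interval lies at outer shore distances from the first island. The first of these islands had 3 of 563 and 0 of 432 methylated reads and the second 2 of 497 and 1 of 525. Their shores had 32.9% in Bull1 and 64.9% in Bull2, and 36.7% and 64.2%. By site the differences were -16.2 and -16.8 points (exact stratified test, adjusted p = 1.2e-25 and 9.7e-30, with neighbouring CpGs taken as independent). Coverage moved with the level there, with 26.0 reads per site in Bull1 and 64.4 in Bull2 around the first island, and its part in the result was not tested. Around the first island, the 30 of 45 shore CpGs covered more deeply in Bull2 had 45.4% in Bull1 and 74.6% in Bull2. The 38 of 54 such CpGs around the second had 39.2% and 69.7%. At 3 CpGs there covered more deeply in Bull1 the levels were 93.0% and 82.9%. The 15 CpGs of like coverage around the first island were lower, at 15.8% and 13.3%. The 13 around the second had 18.1% and 15.97%. At these CpGs of like coverage alone the differences were 2.47 and 2.09 points. With sites at least 300 bp apart it was -36.1 points around the first island and 4.93 points around the second.

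**Figure D5:**
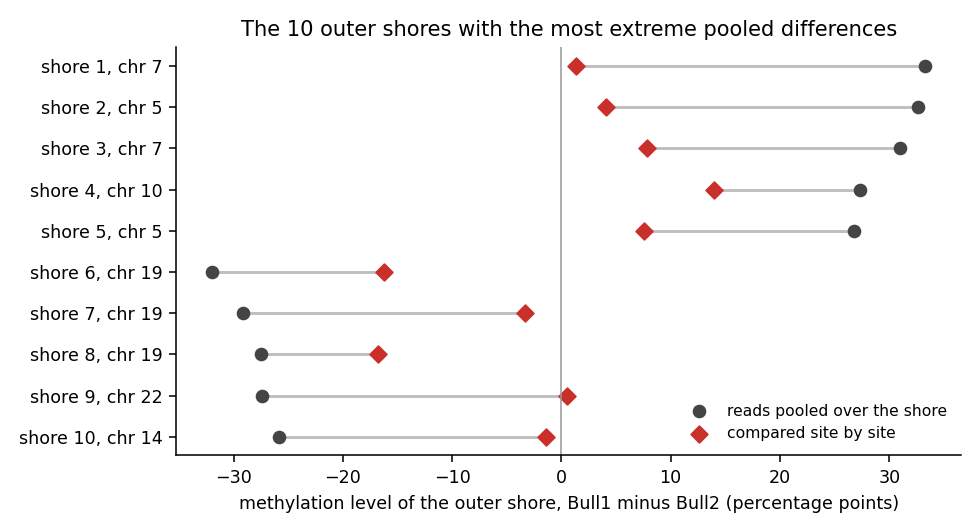
Difference in methylation level of the outer shore, Bull1 minus Bull2 (x axis, percentage points), for the 5 highest and 5 lowest called shores of unmethylated islands (y axis, with chromosome), from reads pooled over the shore (circles) and compared within each CpG (diamonds). Pooled differences from 33.3 to 26.7 points came to between 1.32 and 13.9 points by site, and shores 6 and 8, which share sites beside UBB, kept the most on the lower side.

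By site, the largest called difference at a member was at the shore of chr19:53364021-53364737. Its reads were 87 methylated of 176 (49.4%) in Bull1 and 39 of 133 (29.3%) in Bull2, and the difference by site was 23.4 points (exact stratified test, adjusted p = 0.00019). The island itself had 7 of 727 and 7 of 592 methylated reads. The next, at chr14:1966247-1966561, had 33 of 54 (61.1%) and 39 of 77 (50.6%), a difference of 21.4 points by site (exact stratified test, adjusted p = 0.035), while its island had 3 of 70 and 2 of 66. On the lower side the largest was chr19:43369876-43370354, whose shore had 55 of 176 (31.2%) and 72 of 138 (52.2%), a difference of -17.8 points by site (exact stratified test, adjusted p = 0.0126), while its island had 21 of 255 and 13 of 227.

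The size of the difference went with the level of the shore. By site, 691 member shores under 5% on average differed by a median of 0.106 points, with 20 called higher in Bull1 (2.89%, beside 2.97% of all measured islands with shores of that level) and 5 lower (0.724%, beside 0.676%). Shores from 40% to 60% differed by a median of 2.21 points, with 614 of 4461 higher (13.8%, beside 13.2% of all) and 17 lower (0.381%, beside 0.766%). Shores over 80% differed by a median of 3.56 points, with 1916 of 6350 higher (30.2%, beside 35.8% of all) and 7 lower (0.1102%, beside 0.387%). Over all measured islands the medians at these levels were 0.1102, 2.10 and 3.46 points. Over all measured islands the exception to the rise was the level of 10% to 20%, with a median of -0.80 points. There 1.80% of all were called higher and 14.3% lower. The members had no such dip, with a median of 0.610 points there, beside 0.450 at 5% to 10% and 1.38 at 20% to 40%. Of the members at 10% to 20%, 5.09% were called higher and 2.14% lower. Outer shores of methylated islands, most of which were over 80%, were called higher by site in 36.0% of cases and lower in 0.504%.

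Unmethylated islands lay next to one another. Of 14498 neighbours of unmethylated islands among the measured islands, counted within 2000 bp, 84.9% were unmethylated and 6.12% methylated. Of 27381 neighbours of methylated islands, 85.6% were methylated and 3.24% unmethylated. Another member lay within 2000 bp of 10512 members (46.0%). The longest chains had 14 islands, at chr23:45472012-45486065 with 43 methylated reads of 3786 (1.14%) in Bull1 and 23 of 4288 (0.536%) in Bull2, and at chr8:74321478-74335098 with 15 of 3916 (0.383%) and 30 of 4028 (0.745%).

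The members were unevenly spread over the genome. Chromosome 18 had 23.1 members per Mb and chromosome 19 had 20.9, against 5.23 on chromosome 6. Listed CpGs were also denser on chromosomes 18 and 19, at 14249 and 14972 per Mb against 8513 on chromosome 6. The share of measured islands that were unmethylated ran from 21.7% on chromosome 25 to 54.0% on chromosome 10. On the X chromosome, which the selection left out, 805 of 1494 measured islands (53.9%) met the same limits.

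Of 25138 windows of 100 kb, 9294 (37.0%) held a member and 188 held at least 10. The densest began at position 69300000 of chromosome 4, where both assays lie, and held 41 members among 47 measured islands. Its pooled level was 2.76% in Bull1 and 1.40% in Bull2, with 26 islands higher in Bull1, 13 lower and 2 equal. The next began at position 20800000 of chromosome 2 and held 36 members among 39 measured islands, with 1.46% and 0.773%. The interval chr2:20829696-20829812 in that window is on the study's list of differentially methylated regions between the bulls, assigned to an exon of HOXD10. HOX genes encode transcription factors that pattern the body axis, lie in clusters and are known to carry unmethylated, Polycomb-bound islands in many cell types. In the RefSeq gene order HOXD10 lies between HOXD9 and HOXD11, with HOXD1, HOXD3, HOXD4, HOXD8, HOXD12 and HOXD13 close by. In this window 17 islands were higher in Bull1, 14 lower and 5 equal, with median levels of 0.669% and 0.572%, so the typical island was alike in both libraries. The third window, at position 54100000 of chromosome 7, held 35 members with 4.06% and 2.83%, and 21 of them shared a CpG spacing pattern with another island.

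Such shared patterns, 10 consecutive CpG distances found identically in another measured island, were uncommon in unmethylated islands. They were found in 520 members (2.28%), in 170 methylated islands (0.603%) and in 4682 intermediate islands (46.2%). The 62 members whose pattern occurred in 10 or more islands stood apart, with 7.59% in Bull1 and 7.496% in Bull2 and with 21.8 and 22.7 reads per CpG. The 22333 members without a shared pattern had 1.53% and 1.32% and 6.21 and 6.41 reads per CpG. Of these 62 members, 16 lay on chromosome 27, which had 3.09% and 3.02% over its 393 members and 1.80% and 1.74% over the 377 left without those 16. The other autosomes ran from 1.30% to 1.95% in Bull1 and from 1.11% to 1.66% in Bull2. On chr27:23690542-23712410, 7 of 8 measured islands were such members, with 58 to 68 CpGs each. Their levels ran from 6.34% to 9.04% in Bull1 and from 1.67% to 9.28% in Bull2, at 2.15 to 67.5 and 0.909 to 73.2 reads per CpG.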

How the data were processed

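Whole-genome bisulfite sequencing of sperm DNA from 1 library per bull was analysed. According to the submitters' processing notes, FastQC 0.11.2, Trim Galore 0.4.0, Bismark and Bowtie2 were used with build UMD3.1, and the study's methods state that duplicates were removed. The deposited tables held a fraction per CpG, the share of methylated reads that the authors computed. The deposited counts of methylated, unmethylated and all reads were not normalized, and the levels here were computed from these counts. Whether both strands were summed is not given in the sources used here. A lambda spike-in was added, and conversion rates were not used here.

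The members and lists were chosen with earlier results of these data known. Islands named were the 5 with most reads among the 118 at the upper limit of 99 CpGs, the 5 highest and 5 lowest called shores, the nearest to the level limit and those at the study's assays. Places named from other lists were chosen after their values were seen. HOXD10 and UBB were placed by the differentially methylated regions that the study assigned to them. Primers came from the study's primer list, and gene order from RefSeq on another assembly, whose coordinates were not used. Promoters of gene lists were not analysed here, because a genome or annotation of UMD3.1 was not at hand. Both tests were run on simulated counts drawn independently for each shore or each site. That check does not cover reads that span several CpGs or, for the pooled test, sites covered unequally. Python 3.11.15, numpy 2.4.6, pandas 2.3.3 and scipy 1.17.1 were used. No paired analysis was possible because there was a single library per bull.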

Additional observations from a re-analysis of the deposited data

How the results depend on the processing

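Alternatives moved sizes more than directions. The number of unmethylated islands was 36636 with 10 to 99 CpGs and 13749 with at least 200 reads, and stayed within 1.5 times of 22853 in the other settings. The difference inside the islands was 0.245 points with gaps of at most 30 bp, 0.277 with 100 bp, 0.084 with a level under 5%, 0.187 as an unweighted mean of sites, 0.0018 as the median over islands, 0.173 by site, 0.0524 with at least 10 reads per CpG and -0.172 with a level under 20%. The cause of that reversal was not tested.

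The difference in the outer shores, 2.22 points over their pooled reads, was 2.31 and 2.41 points with level limits of 5% and 20%, 2.55 as an unweighted mean, 2.46 as a median, 1.72 at 500 to 1000 bp, 2.54 at 1000 to 2000 bp, 0.433 at 51 to 500 bp and 2.54 by site. Shore sites were taken at these distances from any member, also where another member lay nearer, unlike the distances from the nearest edge. Calls of member shores, in all, above and below, were 2868, 2478 and 390 at a false discovery rate of 0.01, 16, 10 and 6 with sites 300 bp apart, and 1843, 1798 and 45 at sites of like coverage. Calls below were 108 by site. Against the pooled odds ratio of the shores, 2363 were above and 1403 below. The shares of all measured islands called in these settings are given with the member counts in the results. The restrictions to fewer sites also left fewer reads.

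Relative coverage was 35.8% and 40.04% with no maximum and 34.4% and 42.6% by medians. The 50% distance was 664 and 686 bp over island sides, and 563 bp in both libraries at 0.5 times the level at 1500 to 2000 bp. CpGs methylated in both were 18 with at least 10 reads and 5 at 80%. The spacing was 11.5 bp as a mean and 8 bp as a median distance. The alternatives for promoters of gene lists were not run, and leaving out a library was not possible.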
